A study of Homo sapiens with 12 samples.

Results

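BCL6 was knocked down with siRNA in OCI-Ly7, an established line of germinal centre B cell type diffuse large B cell lymphoma, and RNA was profiled 48 h after transfection. The comparison rests on 6 of the 12 arrays of the series, 3 of cells given a BCL6-specific siRNA and 3 of cells given a non-target control siRNA, chosen by their titles. The other 6 arrays hold the same comparison in Pfeiffer, a second lymphoma line of that type, and were used only to estimate the spread and to show where OCI-Ly7 differed. The control titles of Pfeiffer name an shRNA and its descriptions an siRNA, so the kind of control in that line was not settled. The cells of both lines were grown in IMDM with 10% fetal bovine serum. Both groups of OCI-Ly7 were transfected, so neither shows untransfected cells. The siRNA sequence was not used here, and nothing in the labels says whether the replicates were separate cultures, so the p-values measure the spread between these arrays, which may be technical.

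BCL6 is a zinc finger repressor that B cells need to form germinal centres. It recruits corepressors and histone deacetylases to genes of activation, the DNA damage response, cell cycle arrest and plasma cell differentiation, among them PRDM1, which encodes the plasma cell regulator Blimp-1. Blimp-1 and XBP1, a transcription factor of the unfolded protein response, enlarge the secretory machinery as a B cell becomes a plasma cell. The comparison asks which of these programmes move when BCL6 is lowered in a lymphoma line of germinal centre type.

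Levels are given as log2(signal + 16) of the MAS5 signal, and a change is the siRNA mean minus the control mean on that scale, where a change of 1 is about 2-fold. The constant of 16 makes the change of dim genes smaller. A gene was called when its p from limma, adjusted over all genes by Benjamini-Hochberg, was under 0.05. Of 19775 genes with a probe set of 1 symbol, the upper fraction of 0.5 by mean level in OCI-Ly7 was tested, which was 9888 genes. MS4A1, CD79A, CD79B, PAX5, CD22 and EBF1, which mark B cells, all passed that filter, with mean levels of 11.59 to 14.58. Of the markers of other cells, 1 of 10 for T cells passed the filter (LCK, mean level 13.68, change 0.21, adjusted p = 0.407 by limma), 1 of 6 for NK cells (PRF1) and 1 of 6 for fibroblasts (COL1A1), and 0 of 8 for monocytes and 0 of 5 for epithelium. The summed signal of the T cell markers was 12060 to 13559 on control arrays and 14101 to 14815 on siRNA arrays, and that of the NK cell markers 554 to 579 and 611 to 735. LCK was the brightest of the T cell markers and PRF1 (mean level 8.82) of the NK cell markers. The other 9 and 5 markers were below the filter. PRF1 changed by 0.31 and was not called (adjusted p = 0.135 by limma). The part of these sums in the results was not tested. The monocyte sum was 309 to 360 on control and 247 to 437 on siRNA arrays. Correlations were 0.99 to 0.992 within the OCI-Ly7 groups and 0.987 to 0.989 between them. In bulk RNA, fewer cells of a kind and less RNA per cell cannot be told apart.

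BCL6 itself fell modestly. The control arrays read 13.50, 13.57 and 13.59 and the siRNA arrays 13.13, 13.10 and 13.15, so the groups did not overlap. The change was -0.42 (SE 0.07, adjusted p = 0.00674 by limma), which left 74.6% of the control signal. Leaving out any 1 OCI-Ly7 array kept the call, at adjusted p of 0.0364 or below, but without the variance trend of limma the adjusted p was 0.0520. The second probe set for BCL6 fell by 0.49, leaving 71.3% (adjusted p = 0.00683 in a limma fit over probe sets). The third was -0.17 and left 89.2%, with an adjusted p of 0.457. An exact two-sided permutation test over 3 arrays against 3 gave p = 0.1 for each of the 3 probe sets, the smallest it can give. In Pfeiffer the change was -0.96, which differed from OCI-Ly7 by 0.54 (adjusted p = 0.00439 for the difference). Of the 16 tested genes for BCL6 and its corepressors, BCL6 was the 1 gene called, where 2.44% of all genes were. The list's median change was 0.00, against 0.01 for all genes. Its corepressor CTBP1 was at 0.19 (adjusted p = 0.241) and HDAC3, the deacetylase of the NCOR complex, at -0.16 (adjusted p = 0.324). BCL6B, the close relative of BCL6, was below the filter, with mean levels of 6.35 in control and 6.83 in siRNA cells.

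In all, 241 of 9888 genes were called, or 2.44%, 155 of them higher with siRNA (1.57%) and 86 lower (0.87%). The changes were small. The median was 0.37 among the higher and -0.42 among the lower genes, 167 of the 241 moved by less than 0.5, and 13 passed a change of 1, 11 upward and 2 downward. All 241 had siRNA and control arrays that did not overlap, as did 2286 of all genes tested, or 23.1%. An unadjusted p under 0.05 was met by 1433 genes (14.5%), 886 higher (8.96%) and 547 lower (5.53%). Fitted on the 6 OCI-Ly7 arrays alone, limma called 345 genes (3.49%), 204 of them among the 241. The count was 79 without siRNA replicate 1, 110 without control replicate 1, 120 without siRNA replicate 3, 130 without control replicate 3, 140 without control replicate 2 and 148 without siRNA replicate 2. 68 genes, 38 higher and 30 lower, were called in the fit on 12 arrays, in the fit on 6 and without each OCI-Ly7 array. The individual genes described first come from these. Of the 79 called genes named by rule, 36 of 76 lost the call when probe sets were averaged over the gene, 27 of 79 without the variance trend of limma, 15 without the filter on dim genes and 5 in the fit on 6 arrays. Averaging brings in dim probe sets, and where it ended the call of a gene described below the value is given beside it.

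**Figure D1:**
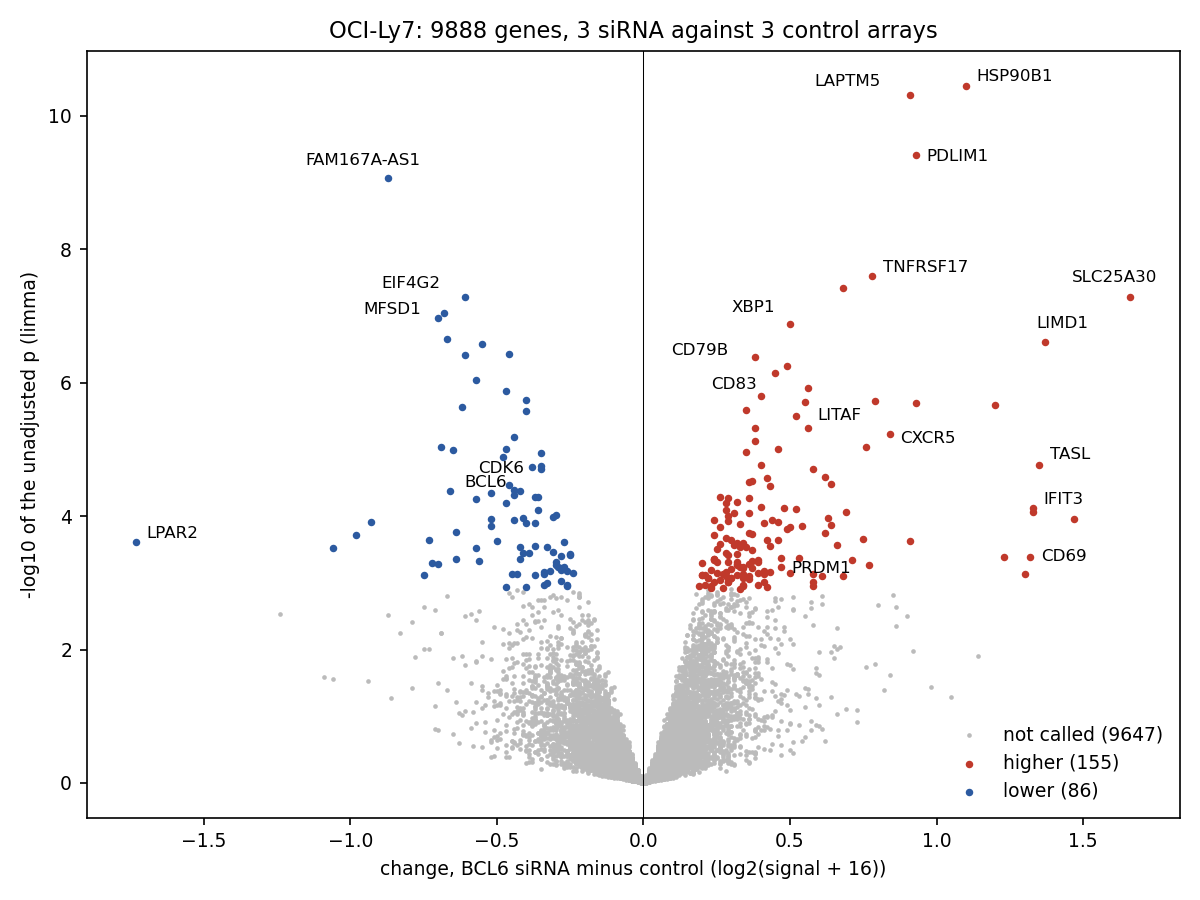
Change in OCI-Ly7 (x, log2(signal + 16), BCL6 siRNA minus control) against -log10 of the unadjusted limma p (y) for 9888 genes, each point 1 gene, with the 155 genes called higher in red and the 86 called lower in blue. HSP90B1 and LAPTM5 have the smallest p-values, and BCL6 lies among the called genes with a small change of -0.42.

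The largest rise was that of SLC25A30, a mitochondrial carrier, at 1.66 (SE 0.17, adjusted p = 6.33e-05). Its control arrays read 6.30, 6.74 and 6.74 and its siRNA arrays 8.25, 8.31 and 8.18, a dim gene whose groups lay well apart. TASL, an adaptor that links endosomal Toll-like receptors to IRF5, rose from 6.85, 7.19 and 7.49 to 8.52, 8.60 and 8.47, a change of 1.35 (SE 0.22, adjusted p = 0.00364). The scaffold protein gene LIMD1 rose by 1.37 (SE 0.16, adjusted p = 0.000187) on its brightest probe set. Its next probe sets changed by 0.50 and 0.33 and were not called, with adjusted p of 0.226 and 0.588, so its probe sets disagree in size. The mean of its probe sets changed by 0.48 (adjusted p = 0.255). PRSS2, a trypsinogen gene, rose by 1.20 (SE 0.16, adjusted p = 0.000756). The related PRSS3P2 rose by 1.23 (adjusted p = 0.0275) but is not among the 68 genes, so its call did not hold in every fit. These genes are near-identical copies, so which of them gave the signal is uncertain.

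HSP90B1, the endoplasmic reticulum (ER) chaperone GRP94, was the gene with the smallest p. It read 11.20, 10.95 and 11.03 in control and 12.13, 12.16 and 12.19 in siRNA cells, a rise of 1.10 (SE 0.07, adjusted p = 2.37e-07) or 2.14-fold. Its second probe set rose by 0.60 (adjusted p = 0.0442). Both carry the array's mark for sequences that can bind other transcripts. LAPTM5, a lysosomal membrane protein that lowers antigen receptor on lymphocytes, rose from 13.16, 13.14 and 13.29 to 14.08, 14.15 and 14.09, by 0.91 (SE 0.06, adjusted p = 2.37e-07). Its other probe set rose by 0.89. PDLIM1, an actin-linked adaptor, read 12.40, 12.31 and 12.49 in control and 13.35, 13.29 and 13.36 in siRNA cells, a change of 0.93 (SE 0.07, adjusted p = 1.27e-06). TNFRSF17 encodes BCMA, a survival receptor of plasma cells, and read 11.48, 11.44 and 11.76 against 12.32, 12.43 and 12.26, a rise of 0.78 (SE 0.07, adjusted p = 5.04e-05). In each of these genes the lowest siRNA array lay above the highest control array.

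CXCR5, the chemokine receptor that brings B cells to follicles, rose from 8.03, 8.38 and 8.37 to 9.03, 8.94 and 9.32, by 0.84 (SE 0.12, adjusted p = 0.00167), and its second probe set by 0.81. CHD1, a chromatin remodeller, rose by 0.93 (SE 0.13). ELK3, an ETS family factor, rose by 0.79 (SE 0.11). GSDME, a gasdermin that forms membrane pores after cleavage, rose by 0.76 (SE 0.12), and PTPRE, a tyrosine phosphatase, by 0.69 (SE 0.13). KLHL14, an adaptor of a ubiquitin ligase that limits the B cell receptor, rose by 0.68 (SE 0.07), and IDH1, the cytosolic isocitrate dehydrogenase, by 0.64 (SE 0.11). The adjusted p from limma for these 6 genes ranged from 6.16e-05 for KLHL14 to 0.0108 for PTPRE. With the mean of a gene's probe sets, the calls ended for KLHL14 (0.12, adjusted p = 0.851), PTPRE (0.41, 0.470) and ELK3 (0.65, 0.101).

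The largest stable fall was FAM167A-AS1, an antisense RNA, whose arrays read 11.21, 11.22 and 11.29 in control and 10.45, 10.35 and 10.31 in siRNA cells, a change of -0.87 (SE 0.07, adjusted p = 2.09e-06). MFSD1, a lysosomal transporter, changed by -0.70 (SE 0.08), and LAPTM4A, a lysosomal membrane protein, by -0.55 (SE 0.06). PIK3R3, a regulatory subunit of PI3 kinase, fell from 10.73, 10.93 and 10.65 to 10.18, 10.05 and 10.03, by 0.69 (SE 0.11, adjusted p = 0.00235). UBQLN2, which carries ubiquitinated proteins to the proteasome, changed by -0.68 (SE 0.07), or by -0.76 and not called (adjusted p = 0.206) without probe sets marked as unspecific, and EIF4G2, a translation initiation factor, by -0.61 (SE 0.06). SUDS3, a subunit of the SIN3 corepressor complex, changed by -0.65 (SE 0.10), DHX33, an RNA helicase, by -0.61 (SE 0.07) and FBP1, the gluconeogenic fructose bisphosphatase, by -0.57 (SE 0.07). The other falls of this group were PLEKHB2 at -0.67, the kinesin KIF5C at -0.66, LINC01857 at -0.62, ZNF215 at -0.52, the profilin PFN2 at -0.48 and NAA38 at -0.47. In none of these 15 genes did a siRNA array reach a control array. With the mean of a gene's probe sets, the calls of PLEKHB2 (-0.30, adjusted p = 0.519), KIF5C (-0.48, 0.350), DHX33 (-0.42, 0.0643), EIF4G2 (-0.30, 0.465) and ZNF215 (-0.17, 0.747) ended.

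**Figure D2:**
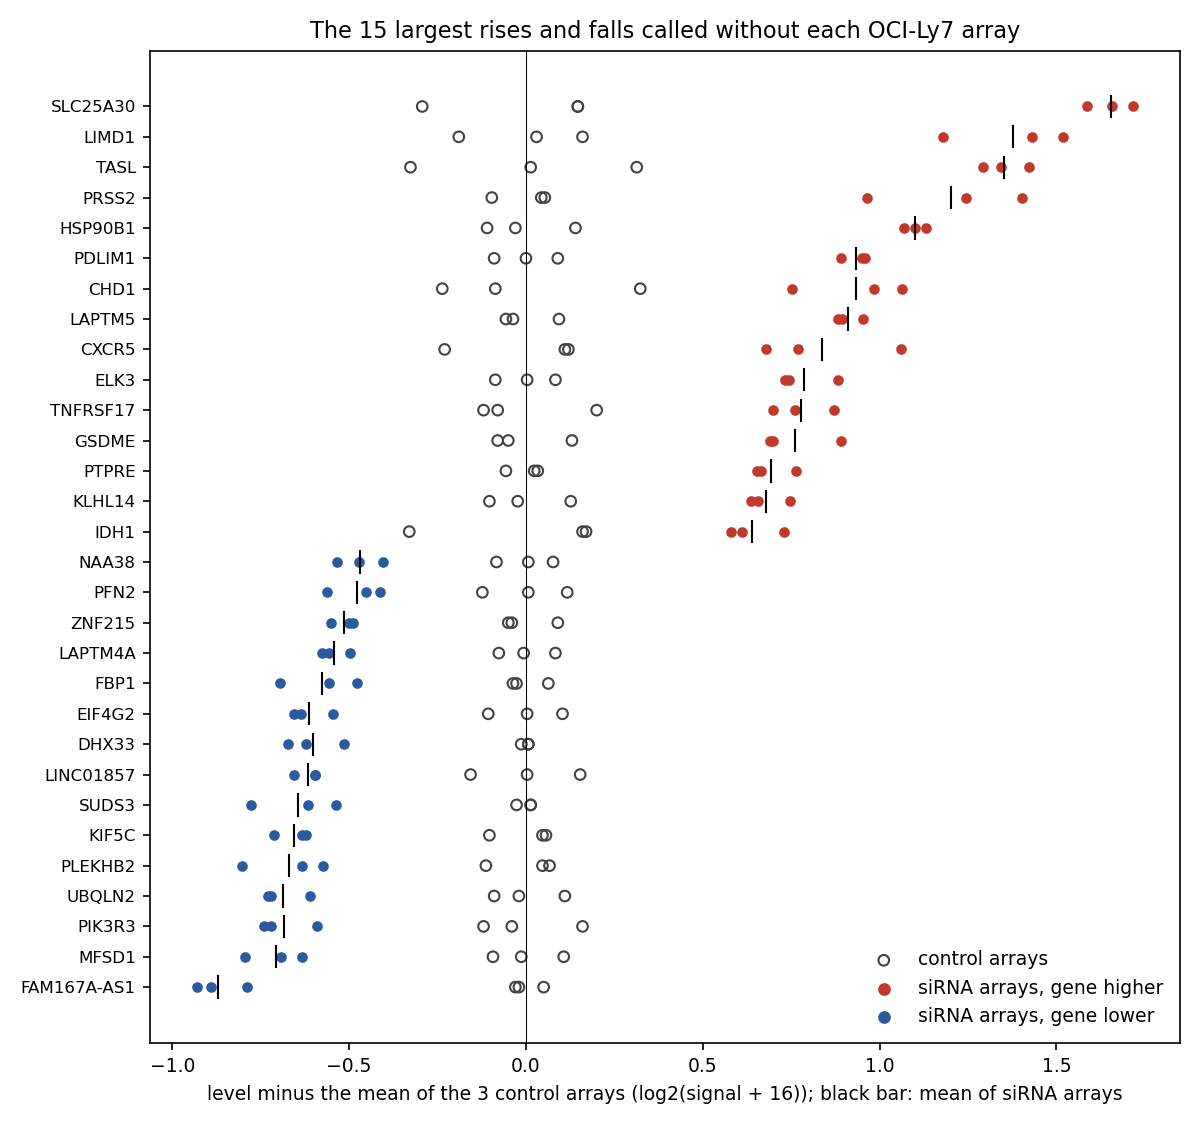
Level on each OCI-Ly7 array minus the mean of the 3 control arrays (x, log2(signal + 16)) for the 15 largest rises and 15 largest falls that were called without each OCI-Ly7 array (y), with control arrays as open circles, siRNA arrays as filled circles and their mean as a black bar. No filled circle reaches an open circle of its gene, from SLC25A30 at 1.66 to FAM167A-AS1 at -0.87.

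Of 18 tested genes listed as targets repressed by BCL6, 5 were called higher and 1 lower, where 1.57% and 0.87% of all genes were, and the median change was 0.16 against 0.01 for all genes. LITAF, a regulator of lysosomal traffic and TNF, rose from 11.33, 11.20 and 11.47 to 11.86, 11.93 and 11.86, by 0.55 (SE 0.07, adjusted p = 0.000727). SUB1, a transcription coactivator, rose by 0.46 (SE 0.07, adjusted p = 0.00237). Both calls held without each array, but LITAF averaged over its probe sets was at 0.44 and not called (0.252). CD69, the early activation antigen that retains lymphocytes in tissue, read 8.97, 9.05 and 8.69 in control and 10.21, 10.12 and 10.33 in siRNA cells, a rise of 1.32 (SE 0.29, adjusted p = 0.0275). The groups lay far apart, yet the call ended without any 1 of the 6 arrays (adjusted p up to 0.119) and with a pseudocount of 1 (0.309). In the limma fit on the 6 OCI-Ly7 arrays alone, the adjusted p of CD69 was 9.49e-05. The fit on 12 arrays shares its spread with Pfeiffer, where CD69 had SDs of 0.52 in control and 0.55 in siRNA cells. In OCI-Ly7 they were 0.19 and 0.10. PRDM1 rose by 0.47 (SE 0.11, adjusted p = 0.0281), from 7.52, 7.82 and 7.88 to 8.07, 8.33 and 8.23, and its call ended without control replicate 1 or siRNA replicate 2 or 3 (adjusted p up to 0.112) and in the fit on the 6 OCI-Ly7 arrays alone (0.170). Its other tested probe sets changed by 0.62 (adjusted p = 0.0878) and 0.27 (0.652). The chemokine receptor CCR7 rose by 0.37 (SE 0.08, adjusted p = 0.0168), a call that ended without control replicate 1 or 2 or siRNA replicate 1 or 2 (up to 0.0805). NFKB1, a subunit of NF-kB, changed the other way, by -0.26 (SE 0.07, adjusted p = 0.0467), and lost its call without each OCI-Ly7 array, without each Pfeiffer control array and without Pfeiffer siRNA replicate 1 (up to 0.161). Without 1 OCI-Ly7 array the list held 2 to 4 genes called higher and 0 lower, with 2 when control replicate 1 or siRNA replicate 2 was left out.

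Other named targets did not pass the test. IRF4, a regulator of plasma cell fate, was at 0.04 (adjusted p = 0.927), CDKN1B, which encodes the cell cycle inhibitor p27, at 0.18 (0.298), the chemokine receptor CXCR4 at 0.20 (0.306), the costimulatory ligand CD80 at 0.15 (0.842) and the survival gene BCL2 at -0.11 (0.943). MYC, which is no member of that list, was at 0.05 (0.866). CD44, an adhesion receptor, was below the filter, with mean levels of 4.89 in control and 6.23 in siRNA cells, as were CCND2 (6.79 and 5.89) and CDKN1A (5.59 and 5.56).

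Among plasma cell regulators and markers, 3 of 16 were called higher and 1 lower (1.57% and 0.87% of all genes), with a median of 0.06. The risers were TNFRSF17, XBP1 and PRDM1. XBP1 rose from 13.01, 12.98 and 12.95 to 13.56, 13.36 and 13.54, by 0.50 (SE 0.05, adjusted p = 0.000119), and held without each array. Its second probe set read 4.74 to 6.60, below the filter, and the mean over both gave -0.06 (adjusted p = 0.971), so the rise rests on the bright probe set. EAF2, a transcription elongation factor of germinal centre cells, changed by -0.24 (SE 0.06, adjusted p = 0.0368) and lost its call without any 1 OCI-Ly7 array or Pfeiffer control replicate 1 (up to 0.137), and averaged over its probe sets it was at -0.14 (0.858). ERN1, the ER stress sensor that splices XBP1 RNA, was at -0.47 (adjusted p = 0.196), and FKBP11, a secretory pathway isomerase, at 0.21 (0.114). SDC1, the plasma cell antigen CD138, was below the filter at 5.90 and 6.26.

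Of 38 tested genes for folding, translocation and secretion at the ER, 6 were called higher and 0 lower, where 1.57% and 0.87% of all genes were. Of the 38, 31 were above zero, as were 5288 of all 9888 genes, and the median was 0.10. HSP90B1 has been given above. SPCS1, a subunit of signal peptidase, rose by 0.35 (SE 0.05, adjusted p = 0.00248), from 12.76, 12.73 and 12.80 to 13.21, 13.01 and 13.11, and held without each array. HSPA5, the chaperone BiP, read 12.56, 12.63 and 12.37 against 12.77, 12.94 and 12.89, a change of 0.34 (SE 0.07, adjusted p = 0.0205). Its call ended without control replicate 1 or 3 or siRNA replicate 2 or 3 (up to 0.0888) and averaged over its probe sets (0.29, 0.463). SEC61A1, the channel through which nascent proteins enter the ER, rose by 0.34 (SE 0.08) and lost its call without any OCI-Ly7 array but control replicate 2 (up to 0.137), in the fit on 6 arrays (0.0502) and averaged over its probe sets (0.31, 0.0658). MANF, an ER stress-induced secreted factor, rose by 0.32 (SE 0.07) and lost its call without any but siRNA replicate 2 (up to 0.142) and when probe sets were averaged (0.0525). SSR4, a subunit of the translocon-associated complex, rose by 0.29 (SE 0.06) and lost it without control replicate 1 or 2 or siRNA replicate 1 (up to 0.0782). The list held 2 to 4 called genes without 1 OCI-Ly7 array, 2 without control replicate 1 and 3 without control replicate 3 or siRNA replicate 1 or 3. Of 19 genes of the ATF4 response 1 was called, the amino acid transporter SLC7A5 (0.47, SE 0.11, adjusted p = 0.0327), which lost its call without any OCI-Ly7 array but siRNA replicate 2 (up to 0.143) and when probe sets were averaged (0.0658). The list's median was 0.00, and ATF4 was at 0.17 (adjusted p = 0.123). Of 19 heat shock genes 1 was called, their regulator HSF1 (0.52, SE 0.10, adjusted p = 0.0101), which lost its call without control replicate 1 or siRNA replicate 1 (up to 0.0668) and averaged over its probe sets (0.34, 0.0936). With 1 call in 19 and 2.44% of all genes called, neither count sets these lists apart.

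Promoters were read for the ER stress response element because HSP90B1, HSPA5 and XBP1 were all called higher. The motif searched was CCAAT, any 9 bases and CCACG, on both strands, in the 250 bases before each gene's start in RefSeq (GRCh38.p14). It was found in 14 of 8210 tested genes with a promoter in the table (0.171%). HSP90B1, HSPA5 and XBP1 were the genes called higher that held it, and since they prompted the search, their number is no evidence about the called genes. They are printed 5′ to 3′ along the strand of the gene, with the matches in capitals, to show where the element lies. The windows are chr12:103930160-103930409 for HSP90B1 on the plus strand, chr9:125241344-125241593 for HSPA5 and chr22:28800570-28800819 for XBP1, both on the minus strand.
HSP90B1: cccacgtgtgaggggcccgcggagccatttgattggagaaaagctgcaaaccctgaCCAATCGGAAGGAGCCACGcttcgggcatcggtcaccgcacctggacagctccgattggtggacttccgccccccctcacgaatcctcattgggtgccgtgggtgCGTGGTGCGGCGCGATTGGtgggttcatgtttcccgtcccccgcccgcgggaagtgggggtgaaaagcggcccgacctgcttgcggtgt
HSPA5: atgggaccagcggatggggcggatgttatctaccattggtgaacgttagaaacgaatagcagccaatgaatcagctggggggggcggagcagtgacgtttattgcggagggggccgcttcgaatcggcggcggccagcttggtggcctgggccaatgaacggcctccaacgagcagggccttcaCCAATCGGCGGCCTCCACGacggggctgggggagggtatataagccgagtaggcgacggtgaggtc
XBP1: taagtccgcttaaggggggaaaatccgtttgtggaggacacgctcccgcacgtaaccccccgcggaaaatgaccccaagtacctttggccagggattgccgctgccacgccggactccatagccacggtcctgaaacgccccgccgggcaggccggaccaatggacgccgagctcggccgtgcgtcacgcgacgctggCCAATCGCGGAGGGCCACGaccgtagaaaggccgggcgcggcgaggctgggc
HSP90B1 has a match 194 to 176 bases before its start and another, on the opposite strand, 89 to 71 bases before it. The HSPA5 match lies 66 to 48 and the XBP1 match 52 to 34 bases before the start. A match is a description of the letters and not a measured binding site.

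A form of the sequence that BCL6 binds, TTCCTNGAA with N for any base, on both strands, was found in 100 of the 8210 promoters (1.22%), in 2 of 128 called higher (1.56%) and in 1 of 67 called lower (1.49%), shares close to that of all promoters. DDB2 and PRSS2 were the 2 higher genes and CNR1 the lower one. DDB2, a sensor of ultraviolet DNA damage, rose from 9.61, 9.58 and 9.54 to 10.13, 10.22 and 10.06, by 0.56 (SE 0.08, adjusted p = 0.00138), and held without each array. Its window at chr11:47214724-47214973 on the plus strand, with the match in capitals on the opposite strand 51 to 43 bases before the start, is shown as the example of this motif in a gene that rose.
DDB2: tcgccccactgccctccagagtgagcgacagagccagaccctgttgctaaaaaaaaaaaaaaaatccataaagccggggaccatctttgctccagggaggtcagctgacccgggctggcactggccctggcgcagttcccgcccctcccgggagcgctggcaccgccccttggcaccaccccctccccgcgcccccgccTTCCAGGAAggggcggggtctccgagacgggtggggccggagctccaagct
Of 23 genes for DNA damage checkpoints and repair, 0 were called by limma (2.44% of all genes), and the smallest adjusted p was 0.254. At an unadjusted p under 0.05, 0 were higher and 1 lower (8.96% and 5.53% of all genes).

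Genes for antigen presentation were mostly above zero, by small amounts. Of 18 tested genes of MHC class II presentation, 3 were called higher and 0 lower (1.57% and 0.87% of all genes), 9 were higher at an unadjusted p under 0.05 (8.96% of all genes were), and the median was 0.21. HLA-DRB1, the beta chain of HLA-DR, rose from 13.18, 13.15 and 13.22 to 13.58, 13.45 and 13.66, by 0.38 (SE 0.06, adjusted p = 0.00199), and held without each array. Its probe set can also bind related HLA-DRB genes. HLA-DMA, which loads peptides, rose by 0.24 (SE 0.05, adjusted p = 0.0169), and lost its call without any OCI-Ly7 array but control replicate 2 (up to 0.0814). CTSH, a lysosomal protease, rose by 0.21 (SE 0.05, adjusted p = 0.0464), and lost it without any OCI-Ly7 array but control replicate 3, without each Pfeiffer control array, without Pfeiffer siRNA replicate 1 (up to 0.162), in the fit on 6 arrays (0.0647) and when probe sets were averaged (0.0635). CD74, the invariant chain, was at 0.23 (adjusted p = 0.0817), and CIITA, the regulator of these genes, at 0.06 (0.933). The list held 1 gene called without any siRNA array, 2 without control replicate 1 or 2 and 4 without control replicate 3. Of 16 genes of class I presentation 15 were above zero (5288 of all 9888 genes), with a median of 0.14. The peptide editor TAPBPL was the 1 gene called of the 16 (0.50, SE 0.12, adjusted p = 0.0368), where 1.57% of all genes were called higher. Its call ended without any 1 OCI-Ly7 array or Pfeiffer control replicate 1 (up to 0.137), in the fit on 6 arrays (0.0714) and averaged over its probe sets (0.32, 0.327).

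Both signalling chains of the B cell receptor rose. CD79B read 13.19, 13.10 and 13.13 in control and 13.51, 13.52 and 13.53 in siRNA cells, a change of 0.38 (SE 0.05, adjusted p = 0.000236) that held without each array. CD79A read 13.34, 13.32 and 13.35 against 13.67, 13.65 and 13.76, a change of 0.36 (SE 0.07, adjusted p = 0.0167) whose call ended without any OCI-Ly7 array but siRNA replicate 2 (up to 0.0830). When probe sets were averaged both calls ended, CD79B at 0.38 (adjusted p = 0.353), whose other probe sets lay below the filter, and CD79A at 0.29 (0.178). The kinase SYK, which binds these chains, rose by 0.24 (SE 0.05, adjusted p = 0.0290), which was not called without control replicate 1 or 3 or siRNA replicate 1 or 2 (up to 0.125), and the mean of its probe sets was 0.06 (0.769). RASGRP3, which activates Ras after receptor signals, changed by -0.57 (SE 0.10, adjusted p = 0.00786) and lost its call without siRNA replicate 1 (0.0510) and in the fit on 6 arrays (0.0734). Of 33 genes of receptor signalling, 3 were called higher and 1 lower (1.57% and 0.87% of all genes), with a median of 0.08. The list held 1 or 2 called higher without 1 OCI-Ly7 array, with 1 when control replicate 1 or 3 was left out, and 0 called lower without siRNA replicate 1.

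Activation genes were called in 3 of 17 cases, all higher (1.57% of all genes were), with a median of 0.15. CD83, a marker of activated B cells, read 10.69, 10.69 and 10.70 against 11.17, 11.12 and 11.14, a rise of 0.45 (SE 0.06, adjusted p = 0.000368). IL21R, the receptor of the helper cytokine IL-21, rose by 0.35 (SE 0.05, adjusted p = 0.000836), from 9.96, 10.00 and 9.98 to 10.32, 10.33 and 10.34. Both held without each array, but IL21R averaged over its probe sets was at 0.20 and not called (0.194). The third of these genes was CD69. Of 17 NF-kB genes, 0 were called higher and 2 lower (1.57% and 0.87% of all genes), NFKB1 and CFLAR. CFLAR, an inhibitor of caspase 8, fell by 0.36 (SE 0.06, adjusted p = 0.00781) and held without each array, which made it the 1 gene called of this list when any OCI-Ly7 array was left out. Without probe sets marked as unspecific it was at -0.28 (0.256). NFKBIA, the NF-kB inhibitor and target, was at 0.31 (adjusted p = 0.140). Germinal centre genes moved both ways, with 2 of 21 called higher (CXCR5 and KLHL14), 1 lower (1.57% and 0.87% of all genes) and a median of -0.02. The lower one was MYBL1, a MYB family factor of germinal centre cells, at -0.47 (SE 0.09, adjusted p = 0.00874). Its call ended without control replicate 2 (0.0525) and averaged over its probe sets (-0.41, 0.408).

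**Figure D3:**
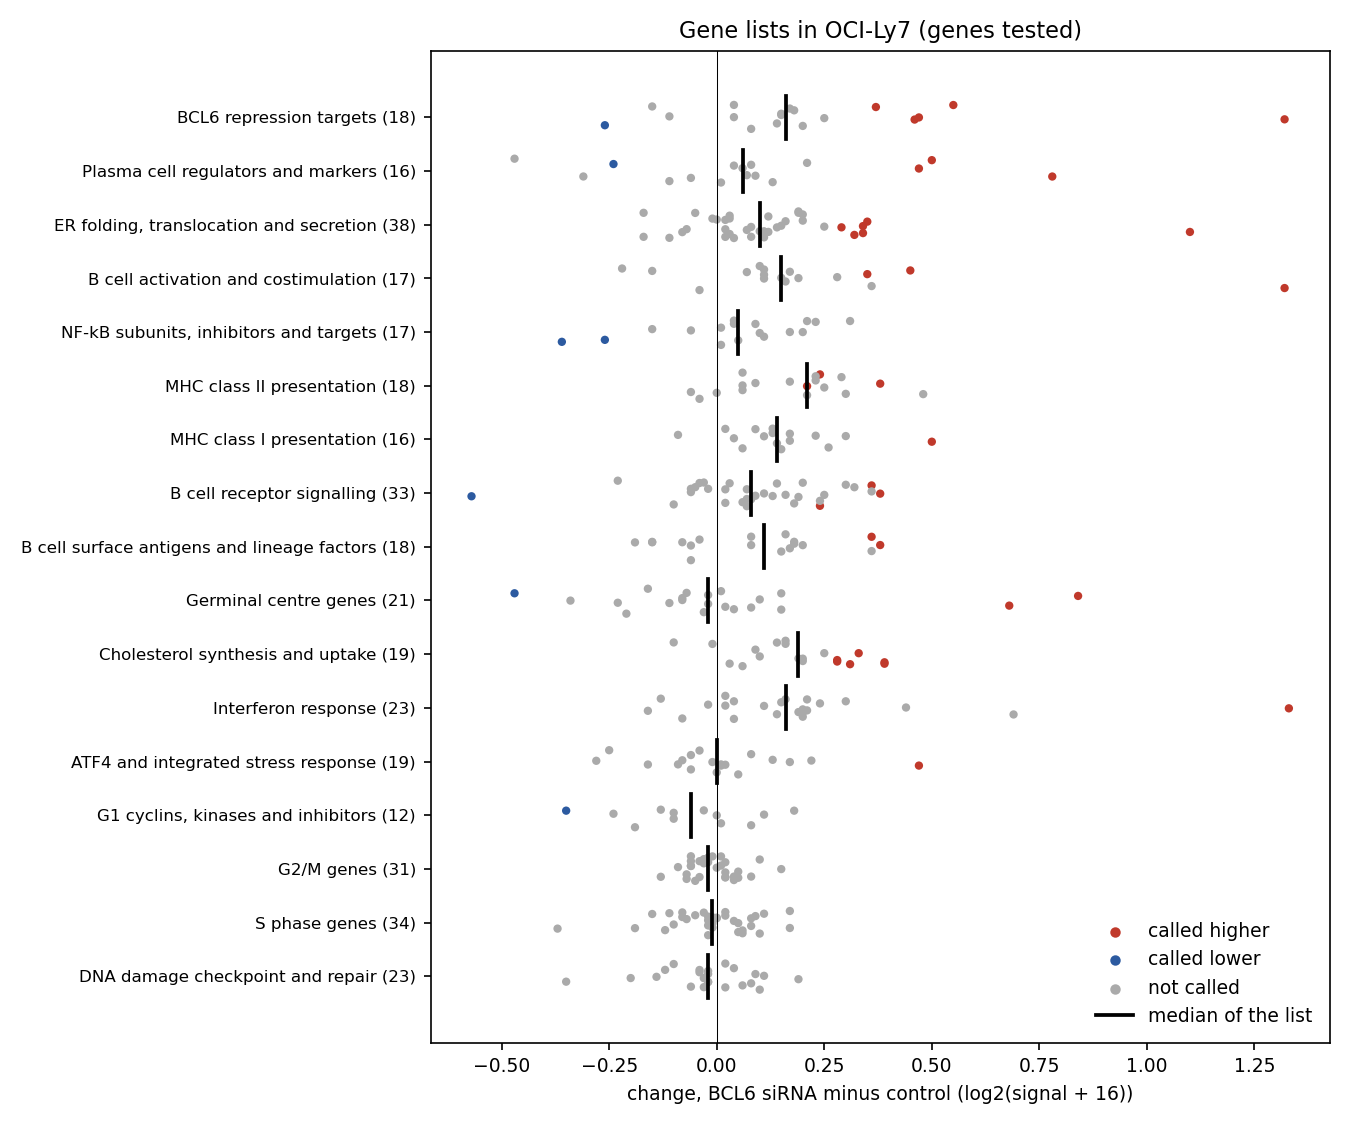
Change in OCI-Ly7 (x, log2(signal + 16)) of the tested genes of 17 lists (y, number of genes tested in brackets), each point 1 gene, red if called higher, blue if called lower and grey if not called, with the list's median as a black bar and points spread vertically for legibility. The medians of BCL6 repression targets (0.16), cholesterol synthesis (0.19) and MHC class II (0.21) lie to the right of zero, and no called gene lies in the lists for DNA damage, S phase and G2/M.

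Cholesterol genes were mostly above zero, by small amounts. Of 19 tested genes of cholesterol synthesis and uptake, 6 were called higher (1.57% of all genes) and 0 lower, and 12 were higher at an unadjusted p under 0.05 (8.96% of all genes). Of the 19, 17 were above zero, as were 5288 of all 9888 genes, and the median was 0.19. HMGCS1, which makes the substrate of the rate-limiting reductase, rose by 0.39 (SE 0.09), DHCR7, which catalyses a last step, by 0.39 (SE 0.09), and LSS, the lanosterol synthase, by 0.33 (SE 0.08). MSMO1, a sterol oxidase, rose by 0.31 (SE 0.07), from 12.58, 12.68 and 12.48 to 12.91, 12.83 and 12.93, and SQLE, the squalene epoxidase, by 0.28 (SE 0.06). IDI1, the isopentenyl diphosphate isomerase, rose by 0.28 (SE 0.05) on its brightest probe set, while the probe set not marked as unspecific was at 0.09 (0.861). When probe sets were averaged, 4 of these calls ended, IDI1 at 0.18 (0.304), SQLE at 0.19 (0.266), HMGCS1 at 0.27 (0.203) and LSS at 0.19 (0.599). The adjusted p from limma ranged from 0.0104 for IDI1 to 0.04996 for LSS. These calls depended on single arrays, since 0 of the genes were called without control replicate 1 and 0 without siRNA replicate 1, against 1 without control replicate 3, 2 without siRNA replicate 3, 3 without siRNA replicate 2 and 6 without control replicate 2. The list's median stayed between 0.16 and 0.24 in these fits. HMGCS1 also lost its call without Pfeiffer control replicate 1 or 2, and LSS without any Pfeiffer control array or Pfeiffer siRNA replicate 1. Of 13 genes of fatty acid synthesis, 0 were called by limma (2.44% of all genes), 3 were higher at an unadjusted p under 0.05 (8.96% of all genes), and the median was 0.09.

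Genes of proliferation had medians near that of all genes in OCI-Ly7, -0.02 for 31 G2/M genes and -0.01 for 34 S phase genes against 0.01. By limma 0 of either list were called, near the 2.44% of all genes for lists of this size. At an unadjusted p under 0.05, 1 G2/M gene was higher and 1 lower, and 1 S phase gene was higher and 2 lower (8.96% and 5.53% of all genes). AURKA, a mitotic kinase, was at -0.13 (adjusted p = 0.289), MKI67, which encodes the Ki-67 antigen, at 0.15 (0.327), and E2F1, the S phase transcription factor, at -0.37 (0.0950). CDK6, the G1 kinase partner of D cyclins, fell from 11.85, 11.76 and 11.75 to 11.37, 11.48 and 11.45, by 0.35 (SE 0.06, adjusted p = 0.00384), and held without each array. Averaged over its probe sets it was at -0.27 and not called (0.273). It was the 1 gene called of 12 for G1 cyclins, kinases and inhibitors, where 2.44% of all genes were called. Of 49 genes of cytosolic ribosomal proteins 0 were called by limma (2.44% of all genes) and 0 met an unadjusted p under 0.05 (14.5% of all genes). Of the 49, 47 were above zero, as were 5288 of all 9888 genes, and the median was 0.07. That median depended on single arrays, at -0.00 without siRNA replicate 2 and 0.03 without control replicate 1. Without another OCI-Ly7 array it was 0.07 to 0.11. In the BCL2 family of 14 genes, 1 was called higher and 1 lower (1.57% and 0.87% of all genes). BIK, a death-promoting member, rose by 0.44 (SE 0.08, adjusted p = 0.0124) and lost its call without control replicate 3 or siRNA replicate 1 (up to 0.0698). MCL1, a survival member, was at -0.27 (SE 0.06, adjusted p = 0.0198) and lost its call without control replicate 1 or 3 or siRNA replicate 1 or 2 (up to 0.103) and averaged over its probe sets (-0.21, 0.223). With probe sets marked as unspecific left out, another MCL1 probe set stood at 0.10 (0.854).

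Lysosomal genes moved both ways, with 2 of 24 called higher and 2 lower (1.57% and 0.87% of all genes) and a median of 0.08. The proton pump subunit ATP6V1A fell by 0.38 (SE 0.06, adjusted p = 0.00364), from 12.37, 12.43 and 12.42 to at most 12.05, with no overlap, and held without each array. The membrane protein LAMP2 fell by 0.56 (SE 0.13, adjusted p = 0.0293), and its call ended without any 1 OCI-Ly7 array (up to 0.136) and with the mean of its probe sets (-0.23, 0.363). LAMP1, its close relative, rose by 0.36 (SE 0.08, adjusted p = 0.0312) and lost its call without any OCI-Ly7 array but siRNA replicate 3 (up to 0.136). Its other tested probe sets were at 0.02 and -0.09, so they disagree, and their average was 0.07 (0.856). CTSH was the other riser. Without 1 OCI-Ly7 array the list held 1 called lower and 0 called higher, except 1 higher without control replicate 3 or siRNA replicate 3.

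OCI-Ly7 was then set against Pfeiffer, where 1613 of the same genes were called (16.3%), 783 higher (7.92%) and 830 lower (8.39%). Of the 155 genes higher in OCI-Ly7, 36 were also called higher in Pfeiffer, 23.2% of the first list and 4.60% of the second. Another 25 of the 155 were called lower there, 16.1% and 3.01%, and 94 were not called. Of the 86 lower genes, 35 were also called lower in Pfeiffer, 40.7% and 4.22%, and 11 were called higher, 12.8% and 1.40%. The genes and probe sets were chosen by brightness in OCI-Ly7, and both lines share 1 estimate of the spread. Of the 241 genes, 7 had a Pfeiffer mean below 7.25, the lowest level tested in OCI-Ly7, where signals are dim. The change itself differed between the lines, by the limma contrast, for 868 genes (8.78%), above Pfeiffer in 497 (5.03%) and below in 371 (3.75%). Of the 241 genes called in OCI-Ly7, 115 were among them. The 241 were chosen by their OCI-Ly7 change, which is part of this contrast, so the choice itself raises that count above the 8.78%.

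Shared rises included LITAF (0.55 in OCI-Ly7 and 0.64 in Pfeiffer), XBP1 (0.50 and 0.44), ELK3 (0.79 and 0.81), PTPRE (0.69 and 0.81) and IL21R (0.35 in each). Shared falls included UBQLN2 (-0.68 and -0.91), LAPTM4A (-0.55 and -0.83), PLEKHB2 (-0.67 and -0.75) and DHX33 (-0.61 and -0.59). The difference was not called for these 9 genes. CD69 was too dim in Pfeiffer to be set beside OCI-Ly7, with arrays at 4.13, 4.22 and 5.06 in control and 6.30, 5.39 and 5.30 in siRNA cells. PRDM1 rose in both lines, by 0.47 and 1.40, with a difference of -0.93 (adjusted p = 0.000997). HSP90B1 rose by 1.10 and 0.72, with a difference of 0.38 (adjusted p = 0.0183). IRF4, not called in OCI-Ly7 at 0.04, rose by 0.82 in Pfeiffer, a difference of -0.78 (adjusted p = 0.00197).

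The most positive differences among genes called in OCI-Ly7 were those of IFIT3, an interferon-induced antiviral gene, TASL, HHEX, a homeobox factor of B cell development, CYB561A3, a lysosomal reductase, CPNE5, a calcium-binding copine, and CD83. IFIT3 rose in OCI-Ly7 from 6.66, 7.31 and 7.04 to 8.50, 8.20 and 8.30, by 1.33 (SE 0.25), a change that differed from Pfeiffer by 2.24 (adjusted p = 0.000795). Its Pfeiffer arrays read 7.08, 6.65 and 6.75 in control and 5.70, 6.16 and 5.87 in siRNA cells, below the lowest level tested in OCI-Ly7, so the size of the Pfeiffer change of -0.92 is uncertain. Its OCI-Ly7 call ended without control replicate 1 or siRNA replicate 1 (up to 0.0705), and when its probe sets were averaged (0.76, adjusted p = 0.0727). CD83 rose by 0.45 in OCI-Ly7 and fell by 1.07 in Pfeiffer. The changes of TASL were 1.35 and -0.63, and those of HHEX 1.33 and -0.49, the Pfeiffer value not called in either, with Pfeiffer siRNA means of 6.82 and 7.07 below that level. CYB561A3 was at 0.33 and -1.29 and CPNE5 at 0.63 and -0.96, both called in both lines. HHEX lost its OCI-Ly7 call without siRNA replicate 1 (0.0552), CYB561A3 without control replicate 1 or 3 or siRNA replicate 1 (up to 0.0786), and CPNE5 without control replicate 1 or siRNA replicate 1 or 3 (up to 0.0782).

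The most negative differences were those of LPAR2, a receptor for lysophosphatidic acid, PIK3R3, LAMP2, DACT3, a regulator of Wnt signalling, CDK6 and RAB20, a small GTPase of endosomes. PIK3R3 fell by 0.69 in OCI-Ly7 and rose by 0.95 in Pfeiffer, a difference of -1.64 (adjusted p = 5.29e-06). CDK6 fell by 0.35 and rose by 0.87, a difference of -1.22 (adjusted p = 2.75e-07), and LAMP2 was at -0.56 and 0.89. LPAR2 read 8.09, 8.58 and 8.19 in control and 7.56, 6.50 and 5.63 in siRNA cells, the largest fall tested at -1.73 (SE 0.36), with a wide spread among siRNA arrays. Its Pfeiffer value was -0.01, and its OCI-Ly7 call ended without any OCI-Ly7 array but siRNA replicate 1 (up to 0.0806), and when its probe sets were averaged (-0.75, adjusted p = 0.231). DACT3 was at -1.06 and 0.19 and lost its OCI-Ly7 call without any array but siRNA replicate 2 (up to 0.102). RAB20 was at -0.93 and 0.20 and lost it without control replicate 1 or 3 or siRNA replicate 1 or 3 (up to 0.0782) and when probe sets were averaged (-1.03, 0.0634).

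By list, the difference was called in 10 of 18 MHC class II genes, 10 of 18 B cell antigens and lineage factors and 10 of 23 interferon response genes, in each case with the OCI-Ly7 change above that of Pfeiffer, as in 5.03% of all genes. Of the 10 interferon genes, IFIT2 and IFIT3 were dim in Pfeiffer. The medians in OCI-Ly7 and Pfeiffer were 0.21 and -0.34 for MHC class II, 0.11 and -0.41 for B cell antigens, and 0.16 and -0.32 for the interferon response. HLA-DMA rose by 0.24 and fell by 0.51, and CD79B rose by 0.38 and fell by 0.72. ISG15, an interferon-induced modifier, was at 0.21 in OCI-Ly7, not called, and at -0.70 in Pfeiffer. The difference ran the other way in 8 of 31 G2/M genes, 7 of 34 S phase genes and 7 of 19 genes of the ATF4 response, against 3.75% of all genes. Their medians in OCI-Ly7 were -0.02, -0.01 and 0.00, and in Pfeiffer 0.21, 0.19 and 0.28. BCL6 was itself less reduced in OCI-Ly7, and the part of that in these differences was not tested.

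**Figure D4:**
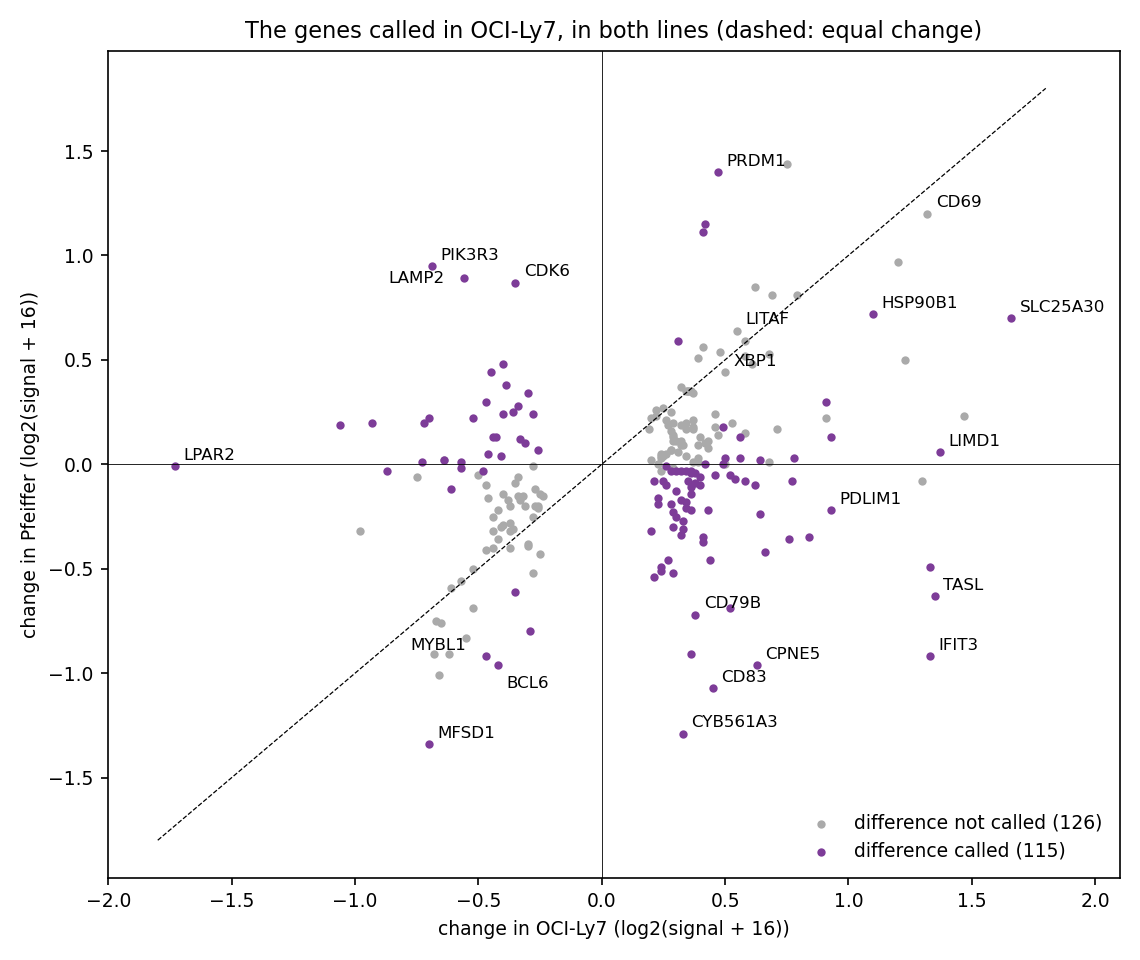
Change in OCI-Ly7 (x) against change in Pfeiffer (y), both log2(signal + 16), of the 241 genes called in OCI-Ly7, each point 1 gene, purple where the difference between the lines was called (115) and grey where it was not, with a dashed line at equal change. LITAF and XBP1 lie near the dashed line. IFIT3, TASL, CD83 and CPNE5 lie low on the right, and PIK3R3, LAMP2 and CDK6 high on the left. CD69 and IFIT3 are dim in Pfeiffer, as is TASL on its siRNA arrays.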

How the data were processed

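Total RNA was labelled and hybridised to Affymetrix U133 Plus 2.0 arrays. The log2 values deposited by the authors came from MAS5 with affy, per the submitters' processing notes, with no version given. MAS5 subtracts mismatch signal, which makes dim probe sets noisy. Each array's linear signal had a mean of 500 after trimming 2% at either end, so the deposited log2 signals were not normalized again. Median signals on the OCI-Ly7 arrays were 77 to 85, 21.2% to 22.9% of probe sets read below 16, and 3 arrays per group limit the precision. The siRNA and control arrays overlapped in the 3'/5' ratios of ACTB and GAPDH.

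Of 54675 probe sets, 62 were controls, 41091 had 1 symbol in the platform annotation, 1801 several and 11721 none. Probe sets of several symbols or none were left out. Identifiers of 41037 were in a RefSeq table (GRCh38.p14), which changed 0 symbols. A gene was represented by its brightest probe set on average over the 6 OCI-Ly7 arrays. The lowest tested level was 7.25, a signal of 136.

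Models were fitted with limma 3.58.1 in R 4.3.3 (lmFit, eBayes with a trend) to all 12 arrays with 4 group means, 8 residual and a median of 7.3 prior degrees of freedom. P-values were two-sided, and standard errors (SE) are moderated by limma. The fit was tested on simulated data with independent noise and, for each gene, the same spread in all 4 groups. Spreads that differ between the lines, as for CD69, were not simulated. Deviations of OCI-Ly7 arrays that share a replicate number correlated at 0.0173, 0.00731 and -0.0529, so the numbers were not taken as pairs. No batch was given in the labels, and none was tested.

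The genes, lists and tests were chosen with earlier results of these data known, so no list is independent support. Named genes are the 15 largest rises and falls called in every OCI-Ly7 leave-one-out fit and in the fit on 6 arrays, up to 6 per list by p, the 6 most positive and 6 most negative line differences, and 22 genes named in every case, some of which are not reported here. PRSS3P2, and the promoter examples, were chosen after their values were seen.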

Additional observations from a re-analysis of the deposited data

Results flagged for a closer look

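The limma contrast of the OCI-Ly7 change minus the Pfeiffer change was called for 868 of 9888 genes at an adjusted p under 0.05. The differences below are on the log2(signal + 16) scale and come from that contrast. They cover the named genes that were called in OCI-Ly7 and for which the contrast was also called. IFIT3 is dim in Pfeiffer. The Pfeiffer siRNA means of TASL (6.82) and HHEX (7.07) also lie below 7.25, the lowest level tested in OCI-Ly7. The size of the differences of IFIT3, TASL and HHEX is therefore uncertain.

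Among genes that rose in OCI-Ly7 the difference was 2.24 for IFIT3, 1.98 for TASL, 1.82 for HHEX, 1.61 for CYB561A3, 1.59 for CPNE5, 1.52 for CD83, 1.31 for LIMD1, 1.19 for CXCR5, 1.15 for PDLIM1, 1.12 for GSDME and 1.10 for CD79B. It was 0.96 for SLC25A30, 0.89 for BIK, 0.88 for IDH1, 0.80 for CHD1, 0.76 for HLA-DMA, 0.75 for CTSH, 0.75 for TNFRSF17, 0.73 for SYK, 0.64 for LSS and 0.61 for LAPTM5. It was 0.57 for HSF1, 0.53 for DDB2, 0.47 for HLA-DRB1, 0.46 for CD79A, 0.40 for LAMP1, 0.38 for HSP90B1, 0.37 for HSPA5 and 0.35 for MANF. Of these genes that rose in OCI-Ly7, PRDM1 alone had a negative difference, at -0.93, since it rose further in Pfeiffer.

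Among genes that fell in OCI-Ly7, the difference was -1.72 for LPAR2, -1.64 for PIK3R3, -1.45 for LAMP2, -1.25 for DACT3, -1.22 for CDK6, -1.13 for RAB20, -0.84 for FAM167A-AS1, -0.73 for ZNF215, -0.61 for CFLAR, -0.58 for FBP1, -0.55 for RASGRP3, -0.49 for EIF4G2 and -0.45 for PFN2. It was positive, with the larger fall in Pfeiffer, for MFSD1 (0.64), BCL6 (0.54) and MYBL1 (0.45).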

How the results depend on the processing

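All 241 genes called in OCI-Ly7 kept their sign in every alternative in which they were tested, except 7 of 233 with the mean of a gene's probe sets and 9 of 184 without probe sets marked as unspecific. The count of calls was 114 with the mean of all probe sets (65 higher, 49 lower), 148 without probe sets marked as unspecific (91 and 57), 113 without the variance trend (63 and 50), and 468 with array weights (316 and 152). It was 146 with the replicate number as a block, 88 of them higher. Without a filter on dim genes 95 were called higher, and on the OCI-Ly7 arrays alone 130 were called lower. Leaving out 1 OCI-Ly7 array gave 79 to 148 calls, 45 to 90 higher and 34 to 58 lower, and leaving out 1 Pfeiffer array 195 to 327 (120 to 213 higher). Quantile normalization gave 295 and pseudocounts of 1 and 64 gave 226 and 257. The line difference was called for 515 genes with the mean of all probe sets and 566 without those marked as unspecific. BCL6 changed by -0.42 without the trend, with an adjusted p of 0.0520, and was called in the other alternatives. XBP1 reversed to -0.06 with the mean of all probe sets, and MCL1 to 0.10 without those marked as unspecific. The cause of these shifts was not tested.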

Other observations

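Further genes of the ER, picked after their values were seen and so given as values alone, were called higher in OCI-Ly7. The ribosome receptor RRBP1 rose by 0.58 (SE 0.10), CNPY2 by 0.49 (SE 0.06) and ERP29 by 0.40 (SE 0.05), and these 3 held without each OCI-Ly7 array. SEC62, a translocation factor, rose by 0.33 (SE 0.07), DAD1, an oligosaccharyltransferase subunit, by 0.25 (SE 0.05) and the isomerase PPIB by 0.24 (SE 0.05), with adjusted p up to 0.0939, 0.104 and 0.121 when 1 OCI-Ly7 array was left out. The Pfeiffer changes of RRBP1, CNPY2 and ERP29 were -0.08, 0.18 and -0.06.

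Other called genes, likewise picked after their values were seen, include lymphocyte genes. Whether their calls held without each OCI-Ly7 array is not given here. ID3, an inhibitor of E proteins, rose from 13.44, 13.47 and 13.50 to 13.92, 13.91 and 13.78, by 0.40 (SE 0.07). The tetraspanin CD53 rose by 0.36 in OCI-Ly7 and was at -0.91 in Pfeiffer, and the lysosomal nuclease RNASET2 by 0.52 and -0.69. TENT5C, which stabilises immunoglobulin RNA in plasma cells, rose by 0.42 and was at 1.15 in Pfeiffer. DEPTOR, an inhibitor of mTOR, fell by 0.35, and was at -0.61 in Pfeiffer.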
